A study of Rattus norvegicus with 16 samples.

Results

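The serotonin transporter Slc6a4, the synthesis enzyme Tph1, the receptors Htr1b, Htr2a and Htr2b and the degrading enzyme Maoa were examined in the lungs of rats kept in chronic low oxygen with or without estradiol. A probe set, the group of array probes read out as 1 value, was used where its annotation gave exactly 1 gene symbol, and the probe set with the highest mean stood for the gene. All 6 genes had exactly 1 such probe set, and they are 6 of the 14506 genes measured. According to the series title, the question was whether estradiol weakens the lung's response to hypoxia through estrogen receptors in a rat model of pulmonary hypertension.

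The 16 animals were male Sprague-Dawley rats weighing 250-300 g, 4 per group, and RNA came from the right lung after its vessels had been flushed with saline. The normoxia group was kept at normal oxygen. The hypoxia group spent 2 weeks at a lowered pressure of 362 mmHg, which corresponds to breathing 10% oxygen. The estradiol group had the same hypoxia and an osmotic pump under the skin that released estradiol (E2), the main circulating estrogen, at 75 µg/kg/day for 3 weeks, beginning before the hypoxia. The estradiol and fulvestrant group had, in addition, daily injections of 3 mg/kg of ICI 182,780 (fulvestrant), an antagonist that is not selective between estrogen receptors. Whether rats of the normoxia and hypoxia groups carried empty pumps is not stated, nor is their age.

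Serotonin is made from tryptophan, and tryptophan hydroxylase sets the pace; Tph1 is the form used outside the nervous system. Lung endothelium clears serotonin from passing blood through the transporter Slc6a4, and monoamine oxidase then degrades it inside the cell. In the pulmonary artery wall the transporter also carries serotonin into smooth muscle, where serotonin is known as a growth signal, and the receptors Htr1b and Htr2a mediate constriction. In rodents, mast cells make and store serotonin, and platelets carry it in the blood.

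Values are log2 signals made by the authors with RMA, so a difference of 1 is a doubling, and levels of different probe sets cannot be compared. To mark dim signal, 1240 odorant and vomeronasal receptor genes, which lung is thought to express little or not at all, were taken as background. The 95th percentile of their means was 6.54, and 78.0% of genes lay above it. Slc6a4, Htr1b, Htr2b and Maoa were above 6.54 on 16 of 16 arrays, Tph1 on 14 and Htr2a on 13. RMA compresses differences of dim probe sets such as those of Tph1 and Htr2a. All 10 measured alveolar epithelial markers and all 14 endothelial markers had means above this background. Pairs of arrays correlated at 0.985 to 0.996 across genes. Estradiol replicates 2 and 3 stood apart from the other 14 arrays on the second principal component (17.4% of the variance), at 25.44 and 22.31 against -7.85 to 5.19. Normoxia replicate 4 is titled normoxia while its treatment field names hypoxia. The title was followed, and on the first component (22.1% of the variance) the normoxia arrays lay at 11.99 to 20.79 and the other 12 at -16.27 to 2.05. No batch is named, so batch and group cannot be told apart.

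**Figure D1:**
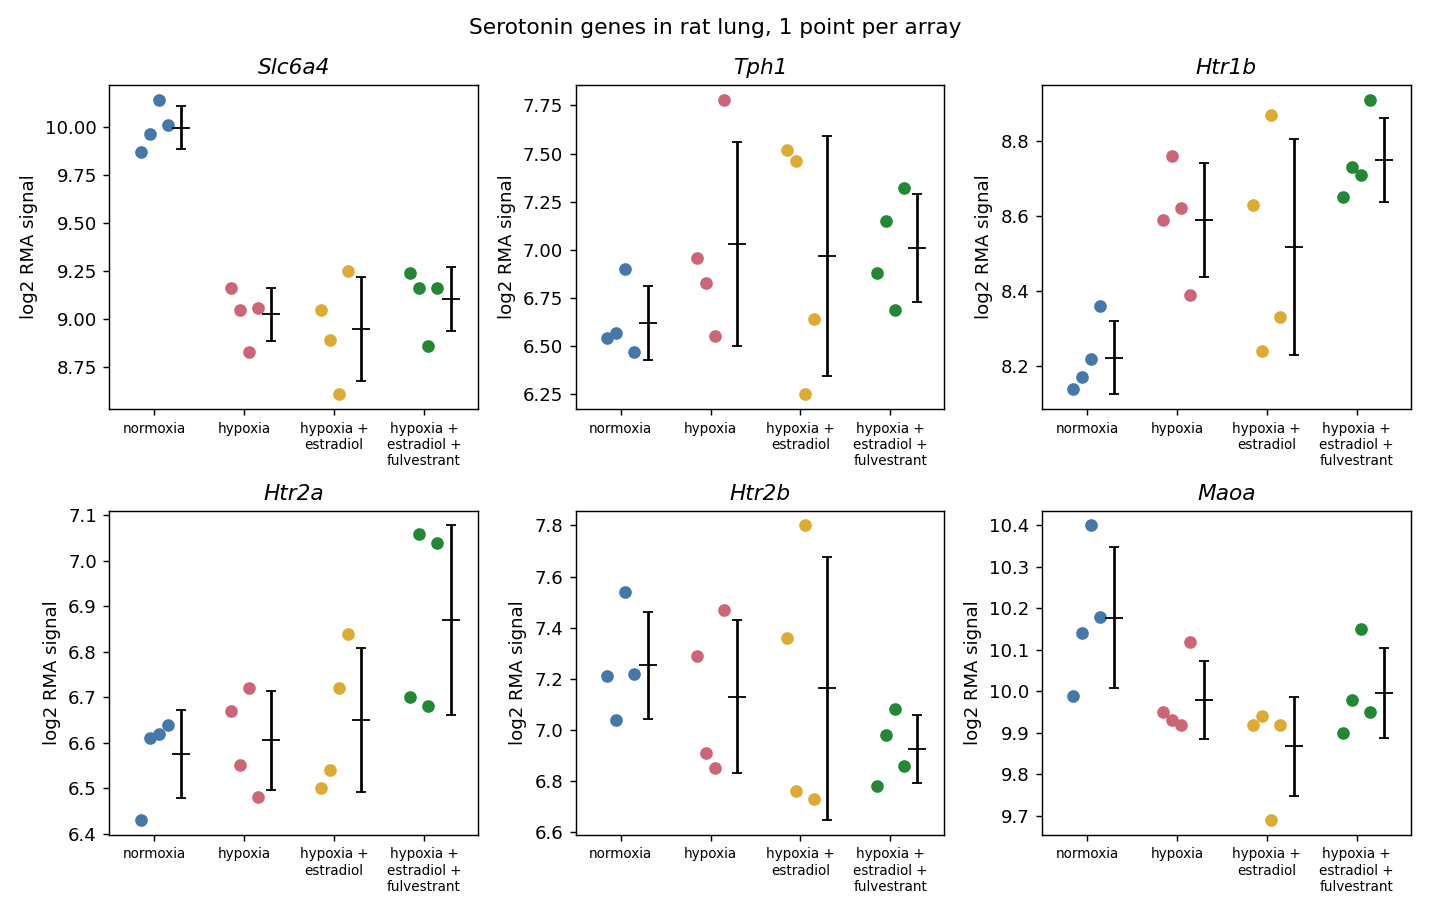
Log2 RMA signal of the 6 serotonin genes in each array, in 1 panel per gene with its own vertical range; points are the 4 arrays of each of the 4 groups, in the order normoxia, hypoxia, estradiol, estradiol with fulvestrant, and the black bar beside them is the mean ± SD. The 4 normoxia arrays for Slc6a4, 9.87 to 10.14, lie above all 12 hypoxic arrays, 8.61 to 9.25. Between normoxia and hypoxia alone, 12.1% of all genes did not overlap.

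Slc6a4 was lower in hypoxic lungs, whatever the added treatment. Its signals (probe set 10745438) were 9.87, 9.96, 10.14 and 10.01 in normoxia, with a mean of 10.00 ± 0.11 (SD, n = 4). In hypoxia they were 9.16, 9.05, 8.83 and 9.06, with a mean of 9.03 ± 0.14 (SD, n = 4). No hypoxia array reached the normoxia range, and the arrays of these groups did not overlap for 12.1% of all genes. The transporter fell by 0.97 on the log2 scale (SE 0.12, 95% interval -1.22 to -0.71), a 1.96-fold decrease, with an adjusted p of 0.000213 in limma. By the size of its change it ranked 104 among the 14506 genes. In that comparison 5.63% of all genes passed, 2.43% as lower and 3.21% as higher. Leaving out each array in turn gave changes of -1.01 to -0.90, and 8 of 8 such fits passed. With normoxia replicate 4 counted as hypoxia, the change was -0.77 with an adjusted p of 0.104. In homogenised lung, fewer cells of a type and less RNA per cell cannot be told apart.

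The estradiol lungs had Slc6a4 signals of 9.05, 8.89, 8.61 and 9.25, with a mean of 8.95 ± 0.27 (SD, n = 4). These values overlapped the range of hypoxia alone, and the difference between these groups was -0.08 (95% interval -0.33 to 0.18, adjusted p = 0.8). With fulvestrant added the signals were 9.24, 9.16, 8.86 and 9.16, with a mean of 9.10 ± 0.17 (SD, n = 4). That was 0.15 above estradiol without fulvestrant (interval -0.10 to 0.41, adjusted p = 0.613) and 0.08 above hypoxia alone (interval -0.18 to 0.33, adjusted p = 0.94). The order of the group means was therefore normoxia, estradiol with fulvestrant, hypoxia and estradiol, and no neighbours below normoxia differed beyond their spread. Against normoxia, Slc6a4 fell by 1.05 in the estradiol group (2.06-fold, interval -1.30 to -0.79, adjusted p = 9.42e-05), where 2.34% of all genes passed as lower. It fell by 0.89 in the estradiol and fulvestrant group (1.86-fold, interval -1.15 to -0.64, adjusted p = 0.00047), which did not pass when normoxia replicate 4 was treated as hypoxic (adjusted p = 0.0754). These comparisons share the normoxia arrays. Without estradiol replicates 2 and 3, the estradiol minus hypoxia difference was 0.12, an alternative chosen after the data were seen.

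The genes whose signal was most like that of Slc6a4 over the 16 arrays were Mettl24 (Pearson r 0.96), Plvap (0.96), Nup210 (0.95), Fzd8 (0.94) and Fam163a (0.94). Plvap forms the diaphragms of endothelial pores, Fzd8 is a Wnt receptor and Nup210 a protein of the nuclear pore. These coefficients reflect mainly the separation of normoxia from the other arrays. After subtraction of each group's mean they were 0.79 for Mettl24, 0.67 for Plvap, 0.56 for Nup210, 0.63 for Fzd8 and 0.79 for Fam163a. The highest values on the centred scale belonged to Nlgn3 (0.89), Dcaf7 (0.88), Fam180a (0.86), Tmem109 (0.86) and Podxl2 (0.85). The Plvap signal averaged 12.78 ± 0.09 (SD, n = 4) in normoxia and 11.95 ± 0.11 in hypoxia. It averaged 11.90 ± 0.17 with estradiol and 11.94 ± 0.08 with fulvestrant added. As with Slc6a4, the normoxia arrays lay above all others, at 12.70 to 12.91 against at most 12.14. Between normoxia and hypoxia alone, 12.1% of all genes had arrays that did not overlap.

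Plvap also belongs to a list of 12 measured markers of lung capillary endothelium. In hypoxia against normoxia, 2 of the 12 rose, 3 fell and 7 did not pass, with a median log2 change of -0.10 against 0.03 for all genes. Those called were Hpgd, which inactivates prostaglandins (-1.66), Gpihbp1, which anchors lipoprotein lipase on capillaries (0.86), Plvap (-0.83), Tmem100 (-0.58) and Aplnr, the apelin receptor (0.35). The mean of the list, relative to normoxia, ranged from -0.07 to 0.10 in normoxia, -0.23 to -0.17 in hypoxia, -0.52 to -0.26 with estradiol and -0.25 to -0.14 with fulvestrant added. Among 14 markers of endothelium in general, 3 rose (Robo4 by 0.80, Egfl7 by 0.73 and Emcn by 0.69), 2 fell (Clec14a by -0.60 and Tek by -0.35) and 9 did not pass. Over 16 arrays Slc6a4 and the capillary list mean correlated at r 0.81 (permutation adjusted p = 0.0036) and rho 0.62 (adjusted p = 0.153), and r was 0.77 without the arrays farthest from the median, normoxia replicate 1 and estradiol replicate 3. The permutation over 16 arrays ignored the groups, so its p also counts the separation of normoxia from the other arrays. Centred on group means and permuted within groups, r was 0.33 (adjusted p = 0.853). Among the other lists, the macrophage mean correlated with Slc6a4 at r -0.76 (adjusted p = 0.0206; rho -0.52, adjusted p = 0.307) and at -0.14 on the centred scale (adjusted p = 0.902); r was -0.79 without normoxia replicate 1 and hypoxia replicate 4. The part of capillary cell number in the lower Slc6a4 signal was not tested. Platelets, which also carry the transporter, were followed by 5 measured markers, of which 0 passed in hypoxia against normoxia, with a median change of 0.02.

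**Figure D2:**
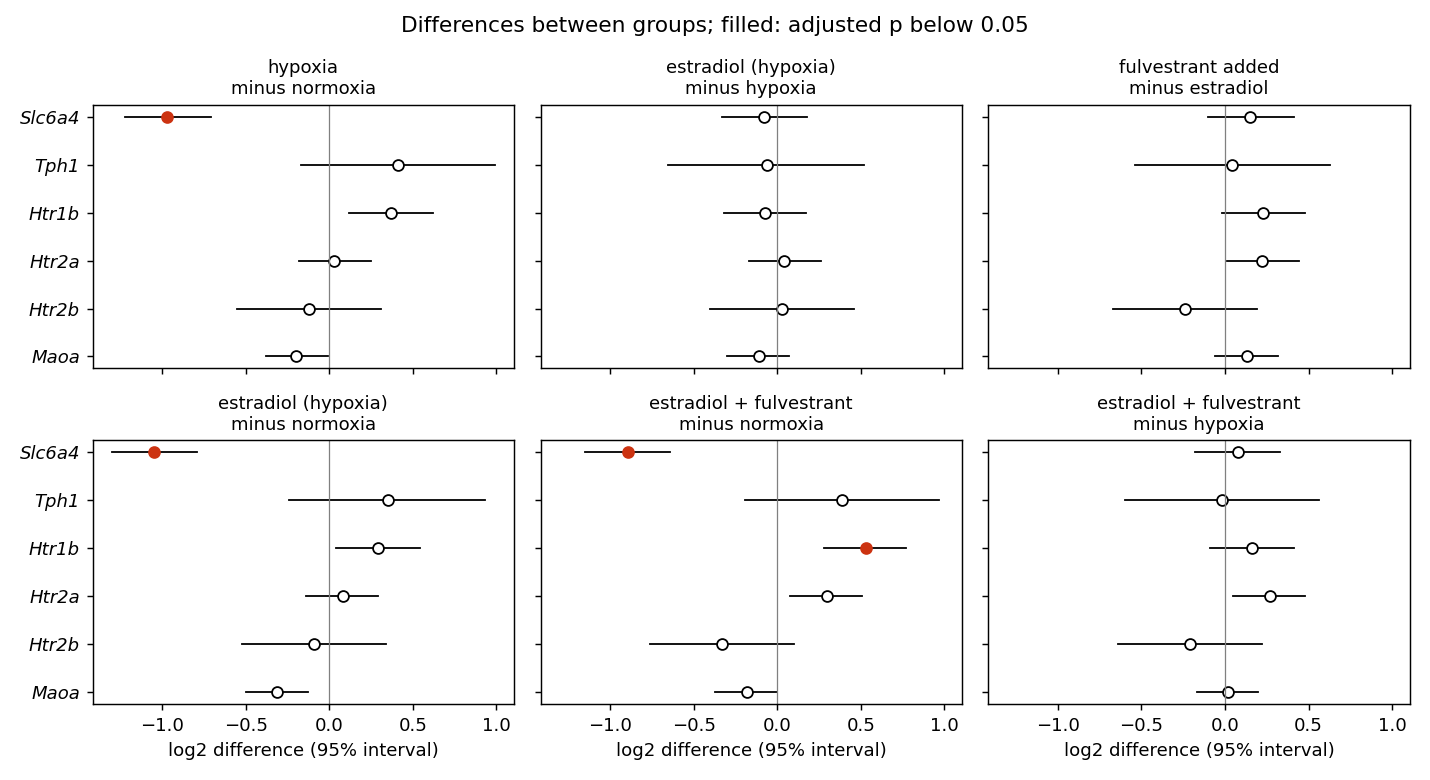
Log2 difference between groups (horizontal axis, with its 95% interval from limma) for the 6 serotonin genes in each of the 6 comparisons; filled points passed an adjusted p of 0.05. Slc6a4 passed in the 3 comparisons of a hypoxic group with normoxia and Htr1b in 1 of them, and no gene of the 6 passed between hypoxic groups.

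Tph1, which makes serotonin outside the nervous system, did not pass in any of the 6 comparisons and varied widely within the hypoxic groups. Its signals (probe set 10722097) were 6.54, 6.57, 6.90 and 6.47 in normoxia, with a mean of 6.62 ± 0.19 (SD, n = 4). In hypoxia they were 6.96, 6.83, 6.55 and 7.78 (mean 7.03 ± 0.53). Estradiol lungs gave 7.52, 7.46, 6.25 and 6.64 (mean 6.97 ± 0.62), and lungs with fulvestrant added gave 6.88, 7.15, 6.69 and 7.32 (mean 7.01 ± 0.28). Hypoxia replicate 4 and estradiol replicates 1 and 2 were the highest arrays, estradiol replicate 3 was the lowest, and every pair of groups overlapped. Hypoxia minus normoxia was 0.41 (SE 0.28, 95% interval -0.17 to 0.99, adjusted p = 0.437). Estradiol minus hypoxia was -0.06 (interval -0.65 to 0.52, adjusted p = 0.941), and fulvestrant's addition gave 0.04 (interval -0.54 to 0.63, adjusted p = 0.97). The group means ran from hypoxia through fulvestrant and estradiol down to normoxia, and no neighbours differed beyond their spread.

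The sequence around the Tph1 start is shown because letters of the cores searched lie close together there. It is the RefSeq window of rat build GRCr8 from 250 bases before to 50 after the gene start, on the minus strand at chr1:106314579-106314878, with the matches in capitals.
Tph1: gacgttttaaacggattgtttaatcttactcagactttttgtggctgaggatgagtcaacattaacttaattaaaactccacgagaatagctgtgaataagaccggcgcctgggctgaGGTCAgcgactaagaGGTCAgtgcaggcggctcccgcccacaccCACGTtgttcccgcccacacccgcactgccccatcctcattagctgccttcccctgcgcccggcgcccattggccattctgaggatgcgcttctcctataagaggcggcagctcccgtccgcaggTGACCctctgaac
The third run of capitals is ACGTG read on the other strand, a core of the hypoxia response element, and begins at position -88, with position 0 at the annotated start. GGTCA is the half-site of the estrogen response element, found 3 times, beginning at -132, at -117 and, on the other strand, at 37. Both strands were searched, and a place that matched on both was not counted again. Of 33469 RefSeq promoters of this length, 19.3% held ACGTG and 40.5% held GGTCA, whatever the number of matches. The share with several matches was not counted. The full element, a pair of such half-sites facing each other with any 3 bases between, was found 0 times in the 4 members with a window in the table and in 0.0269% of all promoters. A match describes letters and shows no binding.

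The array-to-array variation of Tph1 followed that of genes of mast cells, the tissue cells that store histamine and, in rodents, serotonin. The most similar genes over 16 arrays were Ms4a2 (r 0.95, centred on group means 0.96), the beta chain of the IgE receptor, and Cpa3 (r 0.94, centred 0.93), the mast cell carboxypeptidase. On the centred scale Ms4a2 (0.96) was followed by the mast cell protease Mcpt10 (0.95). Ms4a2 was dim, with a mean of 6.38 over 16 arrays, below the background signal of 6.54. Cpa3 signals lay between 7.34 and 8.97 in normoxia and were 9.29, 8.58, 7.43 and 10.11 in hypoxia. They were 9.78, 9.45, 7.48 and 8.58 with estradiol and 8.61, 9.08, 8.29 and 9.24 with fulvestrant added. The arrays with the highest Tph1 were also those with the highest Cpa3, and estradiol replicate 3, lowest for Tph1, was among the lowest for Cpa3.

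The mean of 10 mast cell markers correlated with Tph1 at r 0.91 and rho 0.92 over 16 arrays. The list holds Ms4a2 and Cpa3, named above as most like Tph1. It was chosen with earlier results of these data known, which the p-values below do not take into account. The permutation p was 1e-05 for each, the smallest that 100000 permutations can give, with an adjusted p of 0.00072 over 72 relations (6 genes with 12 marker lists). Without the arrays farthest from the median list mean, hypoxia replicate 4 and estradiol replicate 1, r was 0.85. After centring on group means r was 0.90, and permutation within groups gave p = 0.0006 and an adjusted p of 0.0432; of the 72 relations 1 passed this test, while 7 passed by Pearson's r over all arrays. The test passed in 9 of 16 fits without 1 array, with r from 0.88 to 0.93. It did not pass when normoxia replicate 3 (adjusted p = 0.0986) or 4 (0.0806) was left out, nor without hypoxia replicate 2 (0.109) or 3 (0.0698), estradiol replicate 3 (0.0504), or fulvestrant replicate 3 (0.09) or 4 (0.0605). These fits without 1 array were chosen after the data were seen. By gene, Tph1 correlated with Fcer1a at 0.88, Tpsb2 at 0.87, Mcpt1l1 at 0.79, Cma1 at 0.72, Tpsab1 at 0.64, Mrgprx3 at 0.40, Hdc at 0.13 and Kit at -0.31. Of the 10 markers, 7 had means above the background signal, while Ms4a2 (6.38), Fcer1a (6.34) and Cma1 (6.31) did not. In hypoxia against normoxia Mrgprx3 rose by 0.82, Kit, which endothelium also expresses, fell by 0.73, and 8 did not pass, with a median change of 0.59. Relative to normoxia the list mean was 0.73, 0.39, -0.12 and 0.94 in the hypoxia arrays and 0.92, 0.56, -0.17 and 0.06 in the estradiol arrays. It was 0.09, 0.67, -0.15 and 0.60 with fulvestrant added, so that each hypoxic group held arrays at and above the normoxia range of -0.20 to 0.14. The mean of 6 measured erythroid markers correlated with Tph1 at r 0.62 (permutation adjusted p = 0.0942) and rho 0.68 (adjusted p = 0.112). Without hypoxia replicate 1 and fulvestrant replicate 2, r was 0.67. Centred on group means, r over 16 arrays was 0.53 (adjusted p = 0.612). None of these tests passed. Hypoxia replicate 3 and estradiol replicate 3, low in Tph1, had erythroid list means of -0.13 and -0.14. Other arrays differed from that: estradiol replicate 2, among the highest for Tph1, stood at 0.50. Hypoxia replicates 1 and 2, with Tph1 signals of 6.96 and 6.83, stood at 2.27 and 1.93. The part of mast cell and erythroid RNA in the Tph1 signal was not tested.

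**Figure D3:**
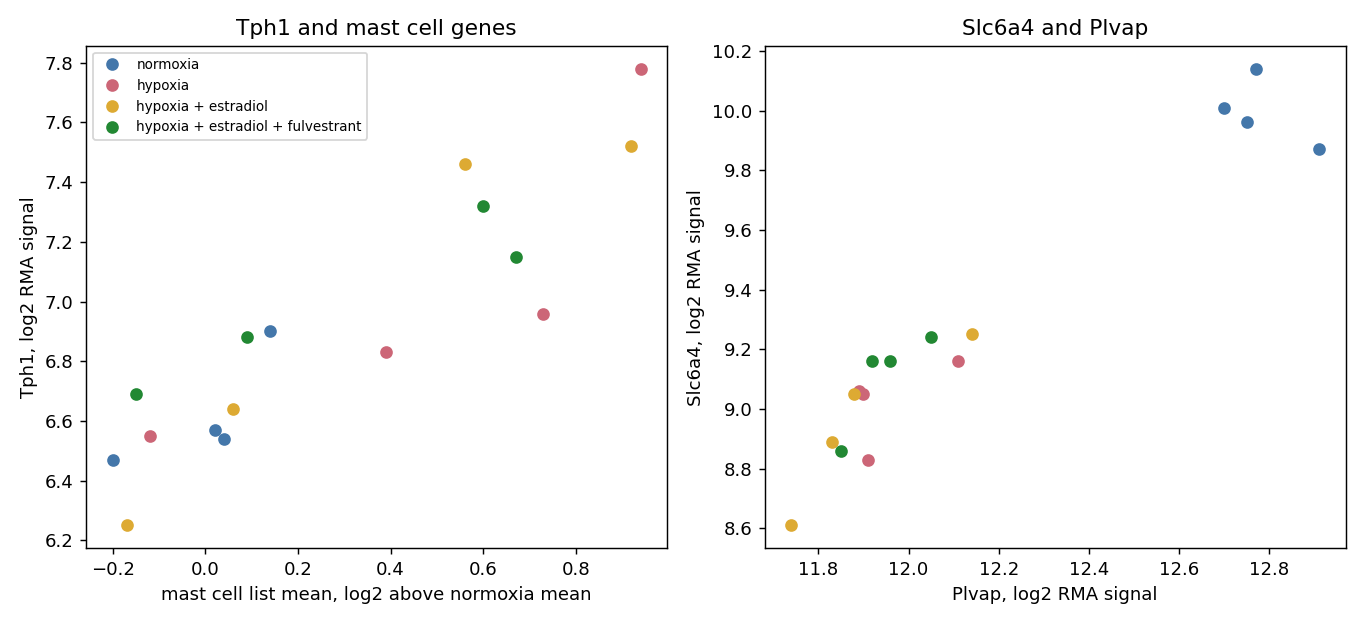
Left, log2 RMA signal of Tph1 against the mean of 10 mast cell markers (log2 above the normoxia mean), 1 point per array coloured by group; right, log2 RMA signal of Slc6a4 against Plvap. Arrays of each hypoxic group spread along the left panel (r 0.91 over 16 arrays), whereas the right panel holds the normoxia arrays apart from the other 12.

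Among the receptors, Htr1b, a receptor that lowers cyclic AMP and constricts pulmonary arteries, passed as higher in 1 of the 3 hypoxic groups against normoxia, that with estradiol and fulvestrant. The signals (probe set 10918979) were 8.14, 8.17, 8.22 and 8.36 in normoxia, with a mean of 8.22 ± 0.10 (SD, n = 4). In hypoxia they were 8.59, 8.76, 8.62 and 8.39 (mean 8.59 ± 0.15). The estradiol group had 8.63, 8.24, 8.87 and 8.33 (mean 8.52 ± 0.29), and the estradiol and fulvestrant group 8.65, 8.73, 8.71 and 8.91 (mean 8.75 ± 0.11). The hypoxia and the fulvestrant arrays lay above all normoxia arrays, while the estradiol arrays, the most spread of the 4 groups, overlapped normoxia through replicates 2 and 4.

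Htr1b rose by 0.53 with estradiol and fulvestrant against normoxia (SE 0.12, 95% interval 0.28 to 0.77, 1.44-fold, adjusted p = 0.0213). In that comparison 2.96% of genes passed, 1.97% as higher and 0.993% as lower, and 12.3% of genes did not overlap between the groups. Htr1b did not pass without normoxia replicate 1 (adjusted p = 0.071) or 2 (0.059), without fulvestrant replicate 3 (0.0536) or 4 (0.0796), and with normoxia replicate 4 counted as hypoxia (0.0597), with changes of 0.47 to 0.57 over these fits. Hypoxia minus normoxia was 0.37 (SE 0.12, interval 0.12 to 0.62), 1.29-fold, with an adjusted p of 0.0796 that missed the threshold. It passed in 2 of 9 alternatives, with array weights (adjusted p = 0.0182) and with these groups fitted alone (0.0451). Of 8 fits without 1 array, 0 passed (adjusted p 0.0616 to 0.199). The arrays of these groups did not overlap, as was the case for 12.1% of all genes. Estradiol minus normoxia was 0.29 (interval 0.04 to 0.54, adjusted p = 0.187). Between hypoxic groups, estradiol minus hypoxia was -0.07 (interval -0.32 to 0.17, adjusted p = 0.801), and the addition of fulvestrant to estradiol gave 0.23 (interval -0.02 to 0.48, adjusted p = 0.378). The means fell from fulvestrant through hypoxia and estradiol to normoxia, and no neighbours in that order passed after adjustment, though the interval of estradiol minus normoxia lay above 0.

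The Htr1b start region is shown for its GCGTG letters, the other common core of the hypoxia response element. The RefSeq window lies on the minus strand of GRCr8 at chr8:91414766-91415065, with GCGTG in capitals.
Htr1b: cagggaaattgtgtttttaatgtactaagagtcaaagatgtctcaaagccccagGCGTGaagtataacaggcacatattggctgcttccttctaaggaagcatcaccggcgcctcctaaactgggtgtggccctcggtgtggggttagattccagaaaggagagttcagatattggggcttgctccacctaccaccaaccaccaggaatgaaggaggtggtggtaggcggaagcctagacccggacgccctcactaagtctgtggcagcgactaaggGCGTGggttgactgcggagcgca
GCGTG was found 2 times, beginning at -196 and 27, and 29.7% of all promoters in the table held it. ACGTG or GCGTG was present in 41.6% of promoters. The window of Htr2b held GGTCA 1 time, beginning at -156, and that of Maoa held no letters of these motifs. Slc6a4 and Htr2a were not matched.

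Htr2a and Htr2b, receptors that act through Gq and phospholipase C, did not pass in any of the 6 comparisons. Htr2a, the receptor of serotonin-driven smooth muscle contraction, was dim. Its signals (probe set 10781467) were 6.43, 6.61, 6.62 and 6.64 in normoxia (mean 6.58 ± 0.09, SD, n = 4) and 6.67, 6.55, 6.72 and 6.48 in hypoxia (mean 6.61 ± 0.11). With estradiol they were 6.50, 6.54, 6.72 and 6.84 (mean 6.65 ± 0.16), and with fulvestrant added 6.70, 7.06, 6.68 and 7.04 (mean 6.87 ± 0.21). The fulvestrant arrays lay above the normoxia arrays, a separation that 12.3% of all genes showed in either direction, at a difference of 0.30 (SE 0.10, interval 0.08 to 0.51, adjusted p = 0.151), and overlapped both other hypoxic groups. Their differences were 0.27 from hypoxia (interval 0.05 to 0.48, adjusted p = 0.644) and 0.22 from estradiol (interval 0.01 to 0.44, adjusted p = 0.326). Hypoxia minus normoxia was 0.03 (interval -0.18 to 0.25, adjusted p = 0.9). In order of the means, fulvestrant, estradiol, hypoxia and normoxia, no neighbours passed.

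The markers of smooth muscle, a cell in which Htr1b and Htr2a act, were followed beside these receptors. In hypoxia against normoxia 3 of 9 rose, Des by 0.75, Cnn1 by 0.62 and Smtn by 0.60, 0 fell and 6 did not pass, with a median of 0.26. The list mean was -0.21 to 0.16 in normoxia, 0.22 to 0.49 in hypoxia, 0.19 to 0.40 with estradiol and 0.46 to 0.89 with fulvestrant added. Over 16 arrays the list mean correlated with Htr1b at r 0.69 (permutation adjusted p = 0.0379; rho 0.64, adjusted p = 0.153) and with Htr2a at r 0.67 (adjusted p = 0.049; rho 0.63, adjusted p = 0.153). Without normoxia replicate 1 and fulvestrant replicate 4, the arrays farthest from the median, r was 0.50 and 0.39. Centred on group means, the correlation was 0.08 with Htr1b (adjusted p = 0.902) and 0.46 with Htr2a (adjusted p = 0.612). Its part in the receptor signals was not tested.

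Htr2b, a receptor known for its role in valve and vessel growth, had the lowest mean in the fulvestrant group. Its signals (probe set 10929566) were 7.21, 7.04, 7.54 and 7.22 in normoxia (mean 7.25 ± 0.21, SD, n = 4) and 7.29, 6.91, 6.85 and 7.47 in hypoxia (mean 7.13 ± 0.30). They were 7.36, 6.76, 7.80 and 6.73 with estradiol (mean 7.16 ± 0.51) and 6.78, 6.98, 7.08 and 6.86 with fulvestrant added (mean 6.93 ± 0.13). All groups overlapped, and estradiol replicate 3 held the highest and replicate 4 the lowest value of the 16. Fulvestrant with estradiol minus normoxia was -0.33 (interval -0.76 to 0.10, adjusted p = 0.487). Hypoxia minus normoxia was -0.12 (interval -0.55 to 0.31, adjusted p = 0.788) and estradiol minus hypoxia 0.03 (interval -0.40 to 0.46, adjusted p = 0.959). From normoxia through estradiol and hypoxia to fulvestrant, neighbouring means did not differ beyond their spread. Htr2b correlated with the endothelial list mean at r -0.68 over 16 arrays (permutation adjusted p = 0.0379) and rho -0.50 (adjusted p = 0.322). With normoxia replicate 3 and estradiol replicate 3 left out together, r was -0.30. On the centred scale r over 16 arrays was -0.68 (adjusted p = 0.546).

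Maoa, the mitochondrial enzyme that oxidises serotonin, had lower mean signals in the hypoxic groups, and 0 of the 3 differences from normoxia passed. The signals (probe set 10936717) were 9.99, 10.14, 10.40 and 10.18 in normoxia (mean 10.18 ± 0.17, SD, n = 4) and 9.95, 9.93, 9.92 and 10.12 in hypoxia (mean 9.98 ± 0.10). They were 9.92, 9.94, 9.69 and 9.92 with estradiol (mean 9.87 ± 0.12) and 9.90, 9.98, 10.15 and 9.95 with fulvestrant added (mean 10.00 ± 0.11). Estradiol arrays lay below all normoxia arrays, and the other groups overlapped normoxia. Estradiol minus normoxia was -0.31 (SE 0.09, interval -0.50 to -0.13) with an adjusted p of 0.0504, just beyond the threshold, in a comparison in which 5.21% of genes passed and 9.21% had arrays that did not overlap. It passed with each array centred on its median (adjusted p = 0.0317), quantile scaling (0.0249), a robust trend (0.0434), without dim genes (0.0398) and without normoxia replicate 1 (0.034). Most alternatives did not pass. Of 8 fits without 1 array, 1 passed (adjusted p up to 0.151), and of 10 other alternatives 4 passed (adjusted p up to 0.251). Hypoxia minus normoxia was -0.20 (interval -0.38 to -0.01, adjusted p = 0.214). Estradiol minus hypoxia was -0.11 (interval -0.30 to 0.07, adjusted p = 0.556), and fulvestrant's addition gave 0.13 (interval -0.06 to 0.32, adjusted p = 0.535). The means fell from normoxia through fulvestrant and hypoxia to estradiol, and no neighbours passed. Maoa followed the capillary list mean over 16 arrays, at r 0.70 (permutation adjusted p = 0.0379) and rho 0.81 (adjusted p = 0.00648), with r 0.76 without normoxia replicate 1 and estradiol replicate 3. Centred on group means r was 0.20 (adjusted p = 0.893).

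By comparison, 1 of the 6 genes passed in hypoxia against normoxia (Slc6a4), beside 5.63% of all genes. With estradiol against normoxia 1 passed (Slc6a4), beside 5.21%, and with estradiol and fulvestrant against normoxia 2 passed (Slc6a4 and Htr1b), beside 2.96%. Of the 6, 0 passed in estradiol against hypoxia, where 0.772% of all genes passed and 16.1% had an unadjusted p below 0.05. Fulvestrant with estradiol against estradiol also gave 0 of 6, beside 0.0483% of all genes and 14.8% with an unadjusted p below 0.05. In fulvestrant with estradiol against hypoxia limma called 0% of all genes, while 1009 (6.96%) had an unadjusted p below 0.05. Between the hypoxic groups the arrays of all 6 genes overlapped, while those of 6.65% of all genes did not overlap in estradiol against hypoxia, 9.05% in fulvestrant against estradiol and 5.03% in fulvestrant against hypoxia. The median log2 difference of the 6 genes was -0.05 in hypoxia against normoxia, where that of all genes was 0.03. It was -0.07 in estradiol against hypoxia (all genes -0.02).

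The 6 genes did not move as a unit from rat to rat. Centred on group means, the correlations of the 15 pairs of genes ran from -0.43 for Tph1 with Htr1b to 0.52 for Tph1 with Maoa over 16 arrays, which share their normalization. Tph1 and Slc6a4 correlated at 0.43 and Htr1b and Htr2b at 0.48 on this scale. The genes most like Htr1b over 16 arrays were Wdr54 (0.89) and Prtn3 (0.86), and on the centred scale Lrrc26 (0.90) and Tjp3 (0.88). Htr2a was most like Pmch (0.79) and Actg2 (0.77), the latter a smooth muscle actin, and, centred, Wrap73 (0.82) and Hs3st6 (0.81). Htr2b was most like Edem2 (0.82) and Aifm1 (0.82), and, centred, Clic1 (0.90) and Hadh (0.89). Maoa was most like Pnkd (0.86) and Phex (0.84), and, centred, Uso1 (0.93) and Pafah1b2 (0.91). With 14506 genes to choose from, the highest coefficients of any gene are large, and they are given as description.

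The wider serotonin genes were followed in 5 lists with 56 measured of 60 listed. In hypoxia against normoxia 1 of the 56 rose, 2 fell and 53 did not pass, a share near the 5.63% of all genes that passed, and their median log2 change was 0.05 against 0.03 for all genes. The 3 called genes came from the list of signalling partners of the receptors. Plcb1, a phospholipase C that Gq-coupled receptors activate, had signals of 9.14, 8.67, 8.80 and 9.13 in normoxia and 9.85, 9.63, 9.98 and 9.74 in hypoxia. It rose by 0.86 (SE 0.11, adjusted p = 0.000345). Its relative Plcb4 had signals of 10.95, 10.59, 10.74 and 10.64 in normoxia and 10.19, 10.25, 10.23 and 10.14 in hypoxia, and fell by 0.52 (SE 0.07, adjusted p = 0.000508). Neither gene's arrays overlapped between the groups, as was so for 12.1% of all genes, and Plcb4 did not pass when normoxia replicate 4 was treated as hypoxic (adjusted p = 0.0576). Gnaq, the alpha subunit of Gq, had signals of 11.52, 11.52, 11.48 and 11.44 in normoxia and 11.12, 11.17, 11.37 and 11.21 in hypoxia, and fell by 0.27 (SE 0.06, adjusted p = 0.0107). Gnaq did not pass under that alternative (adjusted p = 0.113) or with these groups fitted alone (0.0543).

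Plcb1 and Plcb4 also differed from normoxia in the estradiol group and in the estradiol and fulvestrant group, while Gnaq did not pass in either. Plcb1 averaged 9.81 ± 0.13 (SD, n = 4) with estradiol and 10.06 ± 0.15 with fulvestrant added, against 8.93 ± 0.24 in normoxia, and rose by 0.87 (adjusted p = 0.000345) and 1.13 (adjusted p = 3.76e-05). Plcb4 averaged 10.19 ± 0.09 and 10.23 ± 0.05 against 10.73 ± 0.16, and fell by 0.54 (adjusted p = 0.000408) and 0.50 (adjusted p = 0.000873). Of the 56 genes, 0 passed in estradiol against hypoxia and 0 in fulvestrant with estradiol against estradiol, with median changes of -0.03 and 0.03.

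By role, 0 of 7 genes of synthesis and its cofactor, 0 of 11 other receptors, 0 of 10 genes of transport and storage and 0 of 10 genes of breakdown passed in hypoxia against normoxia. Their median changes were 0.05, 0.09, 0.22 and 0.03. Of the 11 other receptors, Htr1d, Htr2c, Htr4 and Htr7 had means above the background signal and 7 did not. Tph2, the neuronal form of tryptophan hydroxylase, was also below it, at 5.09 over 16 arrays, while Ddc, which performs the last step of synthesis, averaged 8.98.

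With estradiol against normoxia 5 of the 56 rose and 5 fell, beside 2.87% of all genes that rose and 2.34% that fell; those beyond Plcb1 and Plcb4 are named after their values were seen. Higher were Inmt, a methyltransferase of tryptamine (1.34, adjusted p = 0.0302), Slc7a5, which imports tryptophan (0.93, adjusted p = 0.01), Gch1, which starts synthesis of the hydroxylase's cofactor (0.84, adjusted p = 0.00736), and Htr2c (0.50, adjusted p = 0.0172). The Htr2c signal was dim, with a mean of 6.64 over 16 arrays, little above the background of 6.54. Lower were Maob, the other monoamine oxidase (-0.54, adjusted p = 0.014), Arrb1 (-0.38, adjusted p = 0.0126), Tgm2, which can link serotonin to proteins (-0.23, adjusted p = 0.0444), and Aldh2 (-0.22, adjusted p = 0.0257). Leaving out 1 array at a time, Tgm2 passed in 2 of 8 fits, Aldh2 in 2, Inmt in 3 and Htr2c in 7, and the other 4 passed in all 8. In hypoxia without estradiol the differences from normoxia had the same signs and did not pass, among them 0.61 for Slc7a5 (adjusted p = 0.0729), 0.42 for Gch1 (0.146) and -0.35 for Maob (0.0942). None of these 8 passed in estradiol against hypoxia, the test of the difference itself.

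**Figure D4:**
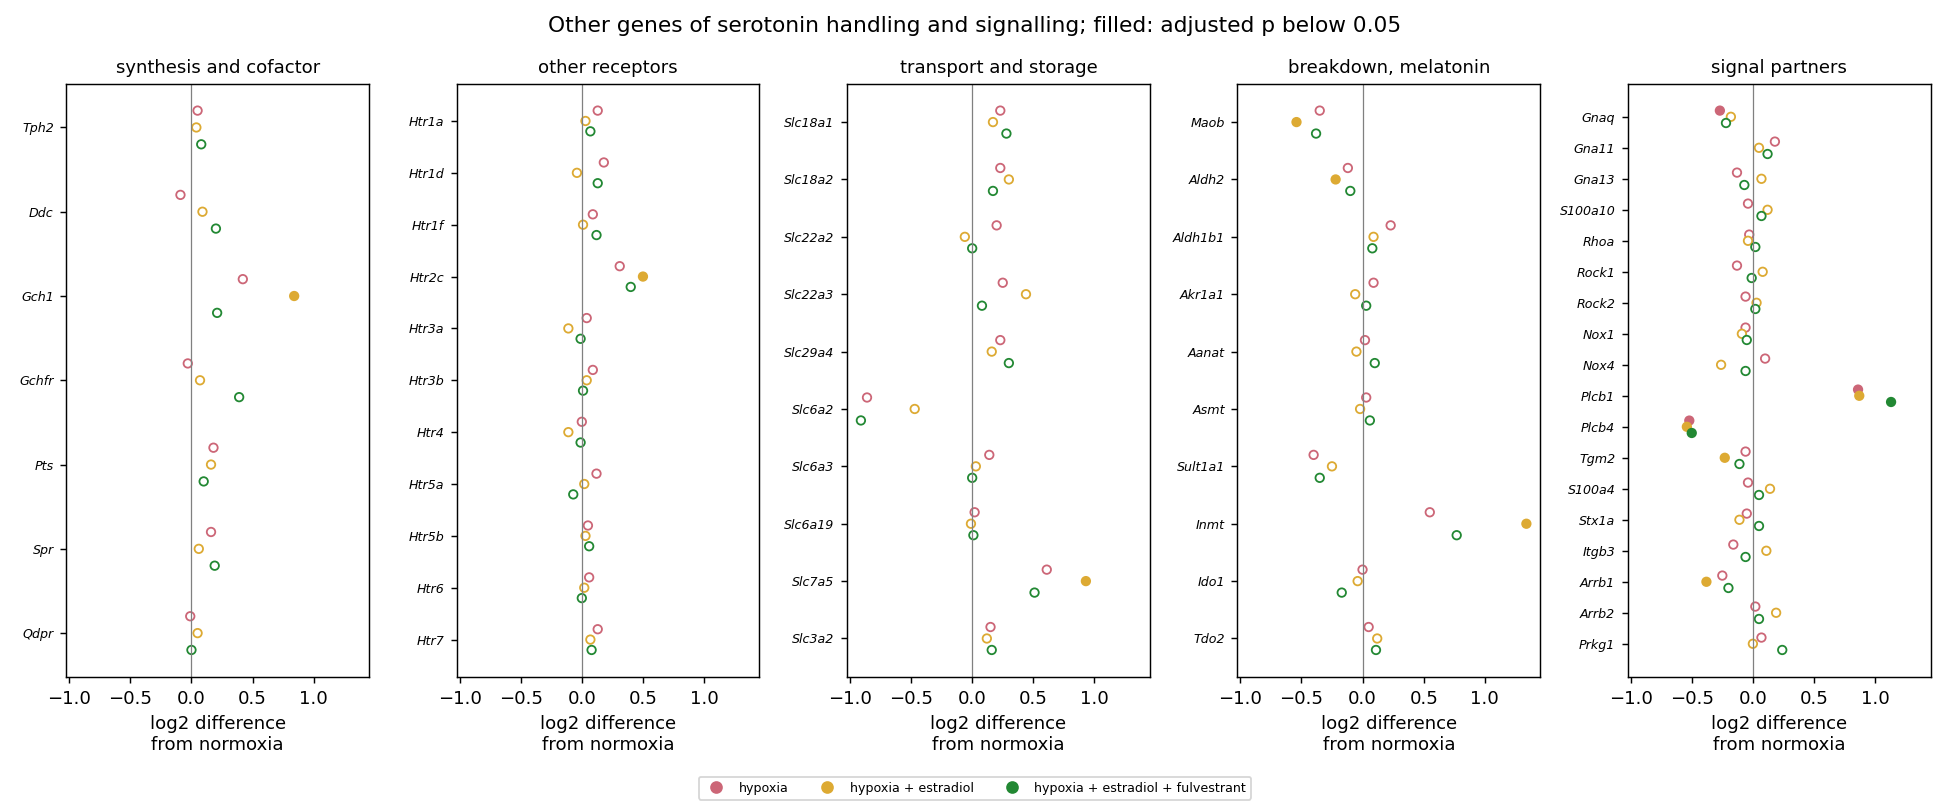
Log2 difference from normoxia (horizontal axis) of the 56 other genes of serotonin handling and signalling, in 1 panel per list, coloured by hypoxic group (hypoxia alone, estradiol, estradiol with fulvestrant); filled points passed an adjusted p of 0.05. Plcb1 lies to the right (0.86, 0.87 and 1.13) and Plcb4 to the left (-0.52, -0.54 and -0.50) in all 3 groups.

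Other cell types were followed by their markers in hypoxia against normoxia. Of 10 pericyte markers 3 rose (Trpc6 by 0.66, Cspg4 by 0.42 and Pdgfrb by 0.28), and of 9 fibroblast markers 2 rose (Mfap5 by 0.41 and Fn1 by 0.29). Of 9 neuroendocrine markers, genes of airway cells that can hold serotonin, 3 rose (Resp18 by 0.76, Uchl1 by 0.42 and Scg2 by 0.21), and 5 of the 9 were above background; Scg2, at a mean of 5.09, was not. Of 8 macrophage markers 3 rose (Fabp4 by 0.88, Chi3l1 by 0.79 and C1qa by 0.60), of 6 erythroid markers 1 rose (Hemgn by 1.27, list median 1.47), and of 10 alveolar epithelial markers 1 fell (Hopx by -0.22). Several of these calls lay near the threshold and were lost in some or most fits without 1 array. Of 8 such fits, Scg2, Uchl1, Mfap5 and Hemgn each passed in 1, and Fn1 and Chi3l1 in 2. Fabp4 passed in 4, Hopx in 5 and Pdgfrb in 6. In the 4 hypoxia arrays the erythroid list stood at 2.27, 1.93, -0.13 and 2.12 relative to normoxia. Of 8 neutrophil markers 0 passed in hypoxia against normoxia (median -0.76), whereas 8 of 8 rose in estradiol against hypoxia (median 1.67), where 0.772% of all genes passed. The neutrophil list mean was -1.18 to -0.34 in hypoxia and 0.37, 1.33, 1.48 and 0.38 in the estradiol arrays, the highest being replicates 2 and 3, which stood apart on the second component. Without those arrays, a fit with fewer estradiol lungs, 0 genes passed in estradiol against hypoxia. The 112 calls of that comparison were not lost with those arrays alone. They became 7, 3 and 5 without hypoxia replicate 1, 2 or 4. Within groups the neutrophil mean correlated with Slc6a4 at -0.52 (permutation adjusted p = 0.618) and with Maoa at -0.37 (adjusted p = 0.692). The part of these cells in the serotonin gene signals was not tested.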

How the data were processed

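RNA of 16 rat lungs was measured on 16 Affymetrix gene arrays, 4 per group, labelled from a whole-transcript kit per the labels' protocols. The deposited table holds log2 values; per the submitters' processing notes the authors used RMA and Partek, with versions, settings and build not given in the sources used here. RMA corrects background, aligns the array distributions and summarises probes, so a shift of most genes would not be seen. Array medians lay between 7.69 and 7.77, with 0 values missing.

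Of 29214 probe sets 15310 had 1 gene symbol, 323 several and 13581 none in the platform annotation; 527 genes had several probe sets, of which the highest-mean one was used, leaving 14506 genes, 14480 with a RefSeq gene ID. Groups came from sample titles; replicate numbers follow submission order and pair nothing. The p-values measure the spread between these animals. The labels do not describe how each rat was housed or processed, and the p-values do not cover an influence shared by a whole group.

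All genes were fitted in limma 3.58.1 (R 4.3.3) with 4 group means over 16 arrays, empirical Bayes moderation and Benjamini-Hochberg adjustment over 14506 genes at 0.05. The procedure was also run on simulated data with independent noise for each gene. Those data hold no arrays that stand apart, unlike the arrays here, so that run does not show how the procedure behaves on these data. Correlations with marker list means used 2-sided permutation tests. Those over 16 arrays shuffled all arrays whatever their group, so differences between groups can by themselves give a low p. Those of centred values shuffled arrays within groups. Named genes are the 6 members, any other listed serotonin gene passing in hypoxia against normoxia, estradiol against hypoxia or fulvestrant against estradiol, the genes most like each member (5 for Slc6a4, 2 for each other, without placeholder and odorant receptor symbols), and up to 4 marker genes per list passing in hypoxia against normoxia. Aplnr and Tek, the fifth of their lists, genes of estradiol against normoxia, and Tph2, Ddc, Htr1d, Htr4 and Htr7, given for their signal, were named after their values were seen. Promoter sequences are RefSeq's, build GRCr8, matched by symbol for 4 of 6 members. The members, lists and tests were chosen with earlier results of these data known. Alternatives were other scalings, filters, models, assignments and arrays left out. Arrays carry no count depth; 4 per group limits the precision.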

Additional observations from a re-analysis of the deposited data

Results flagged for a closer look

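Each of the 6 genes was examined in each of the 4 groups for 1 array far from the other 3 by Dixon's test at the 95% level, 24 groups in all, of which chance alone flags about 1 in 20. It picked out 3 values. Htr2a in normoxia replicate 1 was 6.43, below the 6.61 to 6.64 of the other normoxia arrays and below the background signal of 6.54. Maoa in hypoxia replicate 4 was 10.12, above the 9.92 to 9.95 of the other hypoxia arrays. Maoa in estradiol replicate 3, 1 of the arrays set apart on the second principal component, was 9.69, below the 9.92 to 9.94 of the other estradiol arrays.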

How the results depend on the processing

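Of 618 alternative values for the 6 genes, 568 kept their direction and side of the threshold, 7 lost a call, 7 gained one and 36 changed sign; the cause was not tested. No paired analysis was possible because the labels give no replicate numbers shared between groups. With normoxia replicate 4 counted as hypoxia, calls over all genes moved from 817 to 40 in hypoxia against normoxia, from 112 to 0 in estradiol against hypoxia, from 756 to 351 in estradiol against normoxia and from 430 to 100 in fulvestrant against normoxia; members called were 0 in hypoxia and 0 in fulvestrant against normoxia. Slc6a4 was then -0.77 and -0.89 and Htr1b 0.57 in those comparisons without a call, and signs turned for Slc6a4 (-0.12), Maoa (-0.02) and Tph1 (0.09) in fulvestrant against hypoxia and Tph1 (0.05) in estradiol against hypoxia. With only the compared groups fitted, calls were 5 in estradiol against hypoxia, 216 in estradiol against normoxia, 2 in fulvestrant against hypoxia and 0 in fulvestrant against estradiol, and 2 members passed in hypoxia against normoxia. Array weights gave 4 calls in estradiol against hypoxia, 2 in fulvestrant against hypoxia, 786 in fulvestrant against normoxia, 2 members in hypoxia against normoxia (Htr1b joining) and Tph1 0.11 in fulvestrant against hypoxia. Fulvestrant against estradiol moved from 7 calls to 1 with all probe sets, 21 with median centring (57.1% higher, against 42.9%), 44 with a robust trend, 33 with quantile scaling (69.7% higher) and 28 without the dimmest 25% of genes; all probe sets also gave 4 in estradiol against hypoxia. Centring, the robust trend, quantile scaling and the dim filter each gave 2 members in estradiol against normoxia (Maoa joining). Quantile scaling turned Htr2a in hypoxia against normoxia to -0.02 and Tph1 in fulvestrant against hypoxia to 0.02. Without estradiol replicates 2 and 3, chosen after the data were seen, calls were 0 in estradiol against hypoxia, 325 in estradiol against normoxia and 0 in fulvestrant against estradiol; estradiol against hypoxia became 0.12 for Slc6a4, 0.05 for Tph1 and -0.09 for Htr2b, and fulvestrant against estradiol -0.05 for Slc6a4 and -0.07 for Tph1. Leaving out 1 array gave 428 to 986 calls in hypoxia against normoxia, 3 to 355 in estradiol against hypoxia, 384 to 887 in estradiol against normoxia, 0 to 331 in fulvestrant against estradiol and 238 to 374 in fulvestrant against normoxia, with 1 to 2 members in estradiol and 1 to 2 in fulvestrant against normoxia. Over those fits Htr1b in fulvestrant against normoxia was 0.47 to 0.57 and the r of Tph1 with the mast cell mean 0.88 to 0.93. Signs turned within -0.19 to 0.02 (Htr1b), -0.02 to 0.09 (Htr2a), -0.18 to 0.18 (Htr2b), -0.18 to 0.04 (Slc6a4) and -0.24 to 0.19 (Tph1) in estradiol against hypoxia, -0.02 to 0.07 (Htr2a) in hypoxia and -0.30 to 0.05 (Htr2b) in estradiol against normoxia, -0.03 to 0.06 (Maoa) and -0.18 to 0.23 (Tph1) in fulvestrant against hypoxia, and -0.20 to 0.23 (Tph1) in fulvestrant against estradiol. In hypoxia against normoxia 465 higher and 352 lower calls became 431 and 447 with quantile scaling. For the other named genes called against normoxia, 455 of 560 alternatives in hypoxia, 429 of 521 in estradiol and 337 of 374 in fulvestrant kept the call, and 0 changed sign. Htr2a and Tph1 lay near background, which limits what 4 arrays per group can show.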
